A study of Mus musculus with 12 samples.

Results

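The mitochondrial solute carriers of the Slc25 family were followed in mouse hearts. They were taken as every deposited gene identifier that maps to a protein-coding mouse symbol beginning with Slc25a, which gave 47 genes of 55357 identifiers. Poly(A) RNA of hearts was sequenced in 12 libraries, with 3 libraries in each of 4 groups of male mice that were 8 weeks old at surgery. The tested genotype was the Cd163 knockout (KO, Cd163-/-), in which the haemoglobin scavenger receptor of macrophages is deleted in the whole animal, on a C57BL/6J background, and the control genotype was wild-type (WT) C57BL/6J. KO TAC and WT TAC mice underwent transverse aortic constriction (TAC), a ligature around the aortic arch tied over a 27-gauge needle that loads the left ventricle with pressure. KO sham and WT sham mice had the same operation without the ligature. The sample titles number the replicates 1, 3 and 5 in the TAC groups and 1, 2 and 3 in the sham groups. The labels name neither the animal of each library, nor the part of the heart taken, nor the time from surgery to collection, so the spread behind each p-value is that between libraries and may be partly technical.

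Slc25 carriers are related proteins that sit, with few exceptions, in the inner mitochondrial membrane, which is otherwise tight to charged metabolites. Each moves a particular cargo: ADP and ATP, phosphate, acylcarnitines on their way to fatty acid oxidation, the dicarboxylates and amino acids of the malate-aspartate shuttle, iron, or cofactors. The heart draws most of its ATP from mitochondria, and the muscle isoform of the ADP/ATP carrier is among its most abundant mitochondrial proteins.

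Total counts ran from 14150109 to 22602225 per library. Cd163 itself was lower in every KO library, at 3.14 to 4.60 CPM (counts scaled to a common library size) in KO against 13.7 to 29.5 CPM in WT. All CPM here are scaled by trimmed mean of M-values (TMM), and every log2 fold change and adjusted p of a gene is from edgeR's quasi-likelihood test over all 15804 genes tested, with Benjamini-Hochberg adjustment and a threshold of 0.05. A gene is said to have risen, fallen or been called only where it passed that threshold. Of the 12 libraries, 2 stood apart from their groups. Principal components were taken over the most variable of the tested genes only, and the first held 66.7% of the variance of that subset. On it, KO sham replicate 1 lay at −44.57, among the KO TAC libraries at −44.95 to −40.42 and far from the other KO sham libraries at 24.32 and 27.09. WT TAC replicate 1 lay at −6.69, between KO TAC and the other WT TAC libraries at 17.92 and 23.77. The level of Cd163 fits the genotype of both, but whether KO sham replicate 1 carries its true surgery label could not be checked, and every result that includes that library in the KO sham group rests on it. Results are therefore also given without KO sham replicate 1, and without both libraries where that changed a count by more than 1.5 times.

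The carriers differed widely in abundance, and 1 of them dominated. Averaged over the 12 libraries and divided by exon length, Slc25a4, the heart and muscle ADP/ATP carrier, stood at 1614 CPM per kilobase. The phosphate carrier Slc25a3 followed at 185 CPM per kilobase, the oxoglutarate/malate carrier Slc25a11 at 127 and the second ADP/ATP carrier Slc25a5 at 107. Next on the same scale came Slc25a34, whose cargo is less certain, at 29.1, the aspartate/glutamate carrier Slc25a13 at 21.1, the carnitine/acylcarnitine carrier Slc25a20 at 19.7 and the glutathione carrier Slc25a39 at 19.2. Of the 47 genes, 40 had enough counts to be tested. The 7 untested carriers were Slc25a2 with 82 counts over all 12 libraries, Slc25a18 with 80, Slc25a43 with 32, Slc25a21 with 23, Slc25a41 with 3, Slc25a48 with 2 and Slc25a54 with 0.

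**Figure D1:**
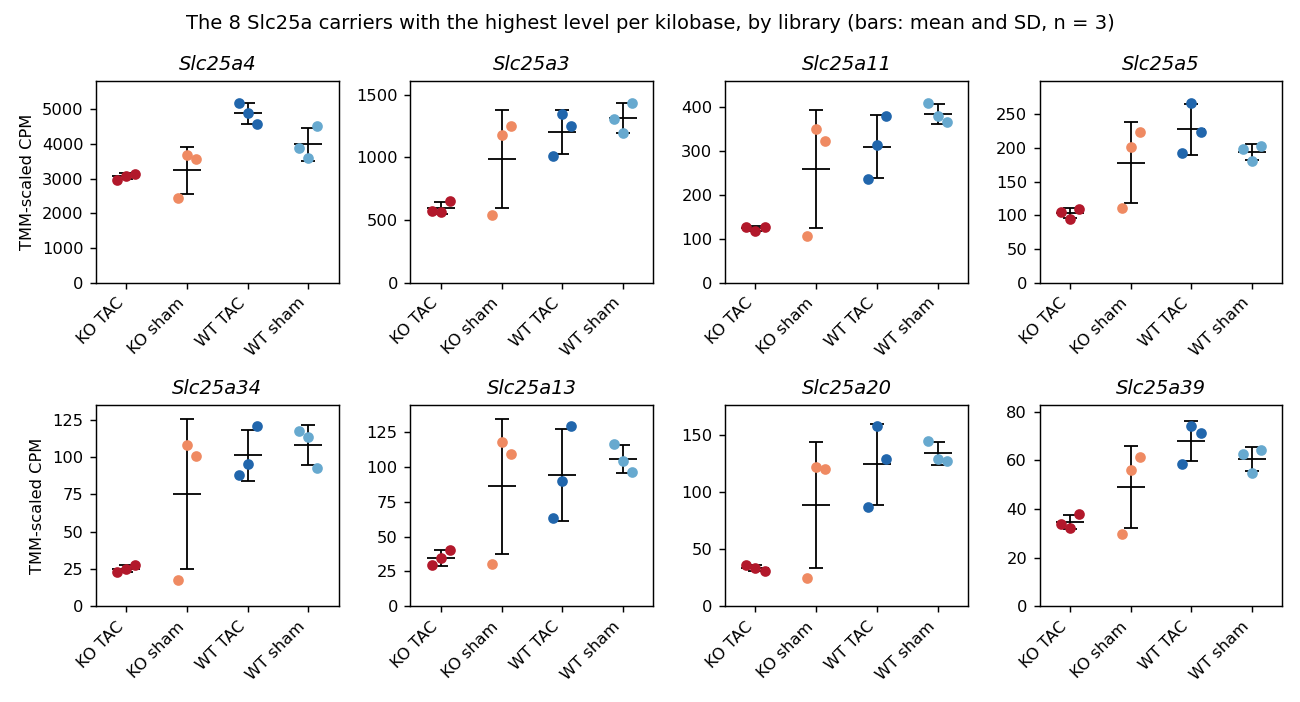
TMM-scaled CPM (vertical axes, linear from 0) of the 8 carriers with the highest level per kilobase in each library, by group, where points are libraries, long bars are means and whiskers are SD (n = 3). In all 8 panels the 3 KO TAC libraries lie below the 3 WT TAC libraries, and 1 of the 3 KO sham libraries, replicate 1, lies far below the other 2.

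After TAC, KO hearts held less RNA than WT hearts for 12 of the 40 tested carriers and more for 4. Both abundant ADP/ATP carriers, the phosphate carrier, the oxoglutarate/malate carrier, 1 of the 2 aspartate/glutamate carriers and the carnitine/acylcarnitine carrier fell, by 0.68 for Slc25a4 to 1.90 for Slc25a20 on the log2 scale. The 12 that fell were 30% of the carriers, against 11.7% of all genes tested, and the 4 that rose were 10%, against 8.63% of all genes tested. All 8 of the most abundant carriers were among those that fell. The median log2 fold change of the 40 carriers was −0.35, against −0.02 for all genes tested. The groups did not overlap for 17 carriers that were lower in KO TAC (42.5%, against 24.3% of all genes tested) and 10 that were higher (25%, against 22.7%).

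Among the ADP/ATP carriers, which exchange matrix ATP for cytosolic ADP, Slc25a4 (ENSMUSG00000031633) had 2971, 3076 and 3146 CPM in KO TAC hearts, against 5197, 4901 and 4589.6 CPM in WT TAC hearts. The groups did not overlap, with a log2 fold change of −0.68 ± 0.21 (SE, adjusted p = 0.0432). Slc25a5 (ENSMUSG00000016319), the second ADP/ATP carrier, had 105, 94.3 and 109 CPM in KO TAC hearts, against 192, 267 and 223 CPM in WT TAC hearts. It fell by 1.15 ± 0.24 on the log2 scale (adjusted p = 0.0193), the smallest adjusted p of any carrier. The ratio of the Slc25a4 level to the Slc25a5 level, both per kilobase, was 19.8, 22.8 and 20.1 in KO TAC hearts, against 18.9, 12.8 and 14.4 in WT TAC hearts, without overlap. In sham hearts this ratio was 15.5, 12.9 and 11.2 in KO, against 13.7, 13.9 and 15.6 in WT. No test was run on it. Slc25a31, the testis form, was low, at 0.965 to 2.36 CPM in KO TAC hearts and 0.393 to 0.653 CPM in WT TAC hearts, with a log2 fold change of 1.51 ± 0.54 that missed the threshold (adjusted p = 0.0637).

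Slc25a3 (ENSMUSG00000061904), which brings in the phosphate for ATP synthesis, had 573, 559.8 and 653 CPM in KO TAC hearts, against 1010.0, 1344 and 1252 CPM in WT TAC hearts. All KO TAC values lay below all WT TAC values, and the log2 fold change was −1.01 ± 0.28 (adjusted p = 0.0334).

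Of the 4 tested carriers of aspartate, glutamate and the malate-aspartate shuttle, which passes cytosolic NADH equivalents to the matrix, 2 fell and none rose. Slc25a11 (ENSMUSG00000014606) had 126, 118 and 127 CPM in KO TAC hearts, against 236, 314 and 381 CPM in WT TAC hearts, a log2 fold change of −1.33 ± 0.36 (adjusted p = 0.0305). Slc25a13 (ENSMUSG00000015112), also named citrin and gated by calcium, had 29.2, 34.6 and 40.6 CPM in KO TAC hearts, against 63.4, 89.8 and 129 CPM in WT TAC hearts, with a log2 fold change of −1.43 ± 0.41 (adjusted p = 0.0362). In both, WT TAC replicate 1 was the lowest WT TAC value and still lay above every KO TAC value. Slc25a12, or aralar, the other aspartate/glutamate carrier, had 72.3, 70.0 and 71.0 CPM in KO TAC hearts, against 80.2, 146 and 157 CPM in WT TAC hearts, and its log2 fold change of −0.84 ± 0.33 missed the threshold (adjusted p = 0.0805). The glutamate carrier Slc25a22 overlapped between the groups.

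Slc25a20 (ENSMUSG00000032602), which exchanges acylcarnitine for carnitine ahead of beta-oxidation, had 35.9, 33.5 and 30.6 CPM in KO TAC hearts, against 87.2, 158 and 129 CPM in WT TAC hearts. Its log2 fold change of −1.90 ± 0.45 (adjusted p = 0.0236) was the second largest fall of the family. The related Slc25a29, better known as a basic amino acid carrier, stood at 2.54 ± 0.71 CPM in KO TAC hearts and 4.98 ± 1.75 CPM in WT TAC hearts (SD, n = 3 each) and was not called (adjusted p = 0.0540).

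The largest fall belonged to Slc25a34 (ENSMUSG00000040740), a carrier whose cargo is less certain, with 22.7, 25.1 and 27.9 CPM in KO TAC hearts, against 88.2, 95.5 and 121 CPM in WT TAC hearts. That is a log2 fold change of −2.01 ± 0.48 (adjusted p = 0.0236), or a 4.02-fold lower level. Its close relative Slc25a35 (ENSMUSG00000018740) had 1.79, 1.80 and 2.16 CPM in KO TAC hearts, against 3.49, 3.71 and 4.36 CPM in WT TAC hearts, with a log2 fold change of −1.0 ± 0.29 (adjusted p = 0.0360). Slc25a46 (ENSMUSG00000024259), an outer membrane member tied to mitochondrial fusion and fission, fell by 0.68 ± 0.22 on the log2 scale (adjusted p = 0.0479), to 40.1, 41.9 and 39.7 CPM in KO TAC hearts against 53.3, 77.2 and 63.9 CPM in WT TAC hearts.

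Slc25a39 (ENSMUSG00000018677), which carries glutathione into the matrix, had 33.6, 32.3 and 37.9 CPM in KO TAC hearts, against 58.6, 74.1 and 71.3 CPM in WT TAC hearts, with a log2 fold change of −0.97 ± 0.23 (adjusted p = 0.0234). Its paralogue Slc25a40 overlapped between the groups and was not called, with a log2 fold change of −0.26 ± 0.15 (adjusted p = 0.203). Among the 9 carriers of vitamins, cofactors and nucleotides, 1 fell and 1 rose. Slc25a16 (ENSMUSG00000071253), linked to coenzyme A, had 7.31, 5.24 and 4.33 CPM in KO TAC hearts, against 10.8, 21.9 and 19.4 CPM in WT TAC hearts, with a log2 fold change of −1.63 ± 0.42 (adjusted p = 0.0281). Slc25a17 (ENSMUSG00000022404), a peroxisomal rather than mitochondrial carrier of coenzyme A and related cofactors, rose by 0.57 ± 0.17 on the log2 scale (adjusted p = 0.0419), to 27.5 ± 2.5 CPM in KO TAC hearts against 18.6 ± 2.3 CPM in WT TAC hearts (SD, n = 3 each).

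The calcium-regulated ATP-Mg/phosphate carriers, which adjust the total adenine nucleotide of the matrix, split in direction. Slc25a25 (ENSMUSG00000026819) had 14.1, 17.6 and 35.1 CPM in KO TAC hearts, against 8.5, 9.51 and 6.26 CPM in WT TAC hearts, the largest called rise of the family at 1.46 ± 0.36 on the log2 scale (adjusted p = 0.0254). Slc25a24 (ENSMUSG00000040322) had 15.2, 14.2 and 12.8 CPM in KO TAC hearts, against 9.09, 9.35 and 10.8 CPM in WT TAC hearts, with a log2 fold change of 0.53 ± 0.14 (adjusted p = 0.0300). Slc25a23 (ENSMUSG00000046329) went the other way, at 28.6, 25.9 and 34.9 CPM in KO TAC hearts against 45.6, 47 and 38.2 CPM in WT TAC hearts, with a log2 fold change of −0.55 ± 0.15 (adjusted p = 0.0317). None of the 3 overlapped between the groups, and replicate 5 alone held the high KO TAC value of Slc25a25.

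Of the iron carriers that feed haem and iron-sulphur cluster synthesis, Slc25a37 (mitoferrin 1, ENSMUSG00000034248) had 66.3, 76.8 and 59.1 CPM in KO TAC hearts, against 45.6, 34.0 and 22.8 CPM in WT TAC hearts. The log2 fold change was 0.98 ± 0.28 (adjusted p = 0.0362). Slc25a28 (mitoferrin 2), the form expressed outside the red cell lineage, overlapped between the groups, with a log2 fold change of 0.35 ± 0.21 (adjusted p = 0.230). The summed level of 5 erythroid genes, the lineage in which mitoferrin 1 is most abundant, was 201, 260.4 and 115 CPM in KO TAC hearts, against 207, 102 and 157 CPM in WT TAC hearts, and the groups overlapped. The part of red cells in the level of Slc25a37 was not tested. None of the 3 tested amino acid carriers other than those of glutamate, the 2 tested di- and tricarboxylate carriers or the 3 relatives of the uncoupling proteins was called.

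The 24 carriers that were not called held smaller or more variable differences. The groups did not overlap for 11 of them, lower in KO TAC for Slc25a12, Slc25a26, Slc25a29, Slc25a42 and Slc25a51 and higher for Slc25a1, Slc25a27, Slc25a31, Slc25a36, Slc25a38 and Slc25a47. Slc25a36 came closest to the threshold, with 85.8, 93.9 and 97.9 CPM in KO TAC hearts, against 81.5, 54.5 and 50.6 CPM in WT TAC hearts, a log2 fold change of 0.57 ± 0.19 (adjusted p = 0.0529). WT TAC replicate 1 was the highest of the WT TAC values, close to the KO TAC range. The NAD carrier Slc25a51 stood at 41.5 ± 2.7 CPM in KO TAC hearts and 54.8 ± 7.7 CPM in WT TAC hearts, and the S-adenosylmethionine carrier Slc25a26 at 10.7 ± 0.9 CPM in KO TAC hearts and 16.7 ± 3.9 CPM in WT TAC hearts (SD, n = 3 each). The other 13 carriers overlapped, and the least different was the dicarboxylate carrier Slc25a10, at 6.36 ± 0.31 CPM in KO TAC hearts and 6.80 ± 0.72 CPM in WT TAC hearts (SD, n = 3 each), with a log2 fold change of −0.10 ± 0.15 (adjusted p = 0.658).

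**Figure D2:**
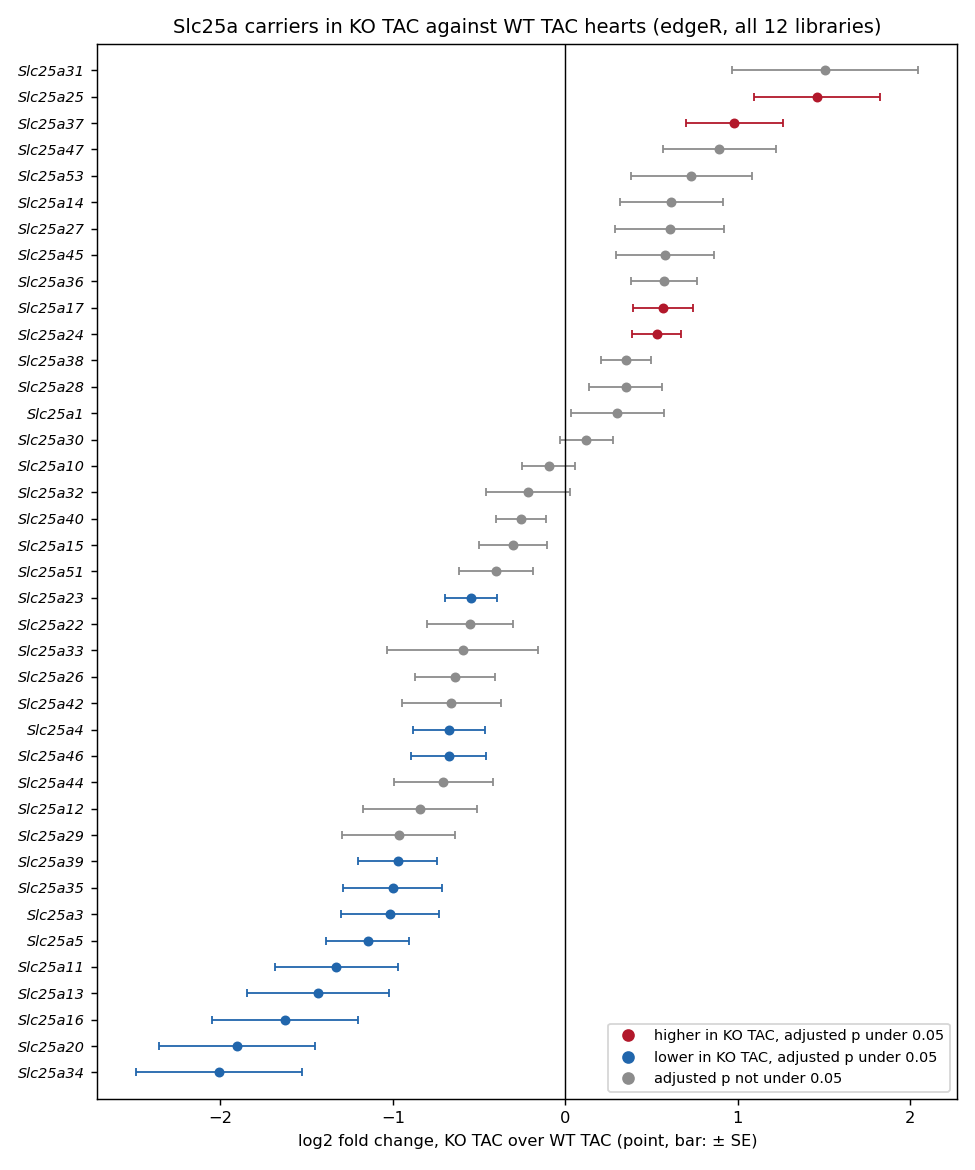
Log2 fold change of KO TAC over WT TAC (horizontal axis) for all but 1 of the 40 tested carriers, where points are edgeR estimates, bars are ± SE and colours mark adjusted p under 0.05. The 12 blue carriers run from Slc25a34 at −2.01 to Slc25a23 at −0.55, and the 4 red carriers from Slc25a24 at 0.53 to Slc25a25 at 1.46.

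This comparison rested on few libraries. Every one of the 16 calls was also made without KO sham replicate 1, where the count grew to 29 of 41 tested carriers, 18 lower (43.9%, against 22.1% of all genes tested) and 11 higher (26.8%, against 18.5%). It was 34 without both libraries that stood apart, and 22 without WT TAC replicate 1 alone. The edgeR count was 0 without KO TAC replicate 1, 3 or 5 or without WT TAC replicate 3 or 5, with 20 to 25 carriers still at an unadjusted p under 0.05, and 8 or 9 without WT sham replicate 1 or 2. With 12 libraries, DESeq2 called 21 carriers and limma-voom 30. Where a count of an alternative fit, here or below, stands without the share of all genes called, it is not read as particular to the carriers. The number of all genes called also grew without KO sham replicate 1, from 3219 to 6585. That library is in neither of the groups compared here and bears on them mainly through the estimate of spread shared by all groups. Leaving out a library chosen for standing apart narrows that estimate and favours calls. The calls kept and gained without it are therefore no independent support. Scaling by library totals in place of TMM moved the median of all genes tested by −0.22 on the log2 scale and changed the split to 1 carrier higher and 16 lower, where Slc25a17, Slc25a24 and Slc25a37 were no longer called. Reads were counted with no stated use of strand, and Slc25a11, Slc25a23, Slc25a25, Slc25a35, Slc25a37 and Slc25a46 share exon bases with a gene on the opposite strand in the reference annotation, so their counts can include reads of that gene.

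To show sequence next to these values, the 250 bases before the RefSeq start (build GRCm38.p6) were read for the carriers with such a window, which 36 of the 47 had. They were searched for AAGGTCA, the core letters bound by oestrogen-related receptors on both strands. These receptors act on many genes of mitochondrial energy metabolism. AAGGTCA or its reverse complement TGACCTT was present for 4.7% of 27025 genes and for 1 of the 36 carriers, Slc25a34. The windows of Slc25a34 (largest fall, chr4:141623835-141624084, minus strand), Slc25a5 (smallest adjusted p, chrX:36795347-36795596, plus strand) and Slc25a24 (a rise, chr3:109122899-109123148, plus strand) are printed 5′ to 3′ in the direction of transcription. They overlap no annotated exon, and capitals mark the receptor's letters.
Slc25a34: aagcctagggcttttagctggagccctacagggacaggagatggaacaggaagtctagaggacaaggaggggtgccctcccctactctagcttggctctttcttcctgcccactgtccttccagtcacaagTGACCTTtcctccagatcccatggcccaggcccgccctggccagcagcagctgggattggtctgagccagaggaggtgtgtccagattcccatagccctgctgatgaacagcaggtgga
Slc25a5: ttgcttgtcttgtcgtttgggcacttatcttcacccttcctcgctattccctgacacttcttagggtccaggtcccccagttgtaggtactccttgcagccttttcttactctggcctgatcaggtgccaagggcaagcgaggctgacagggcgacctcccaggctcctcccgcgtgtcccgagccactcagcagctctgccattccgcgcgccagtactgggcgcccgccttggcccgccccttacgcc
Slc25a24: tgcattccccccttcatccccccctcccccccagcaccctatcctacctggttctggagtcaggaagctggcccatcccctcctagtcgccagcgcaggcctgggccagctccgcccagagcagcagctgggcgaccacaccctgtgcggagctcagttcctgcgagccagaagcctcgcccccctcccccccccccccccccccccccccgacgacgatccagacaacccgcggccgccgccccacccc
In Slc25a34 the letters begin 119 bases before the start, as TGACCTT in the printed direction, and the windows of Slc25a5 and Slc25a24 hold no capitals because the letters are not in them. Of the 12 carriers that fell, 10 had a window and 1 held the letters, and of the 4 that rose, 3 had a window and 0 held them.

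**Figure D3:**
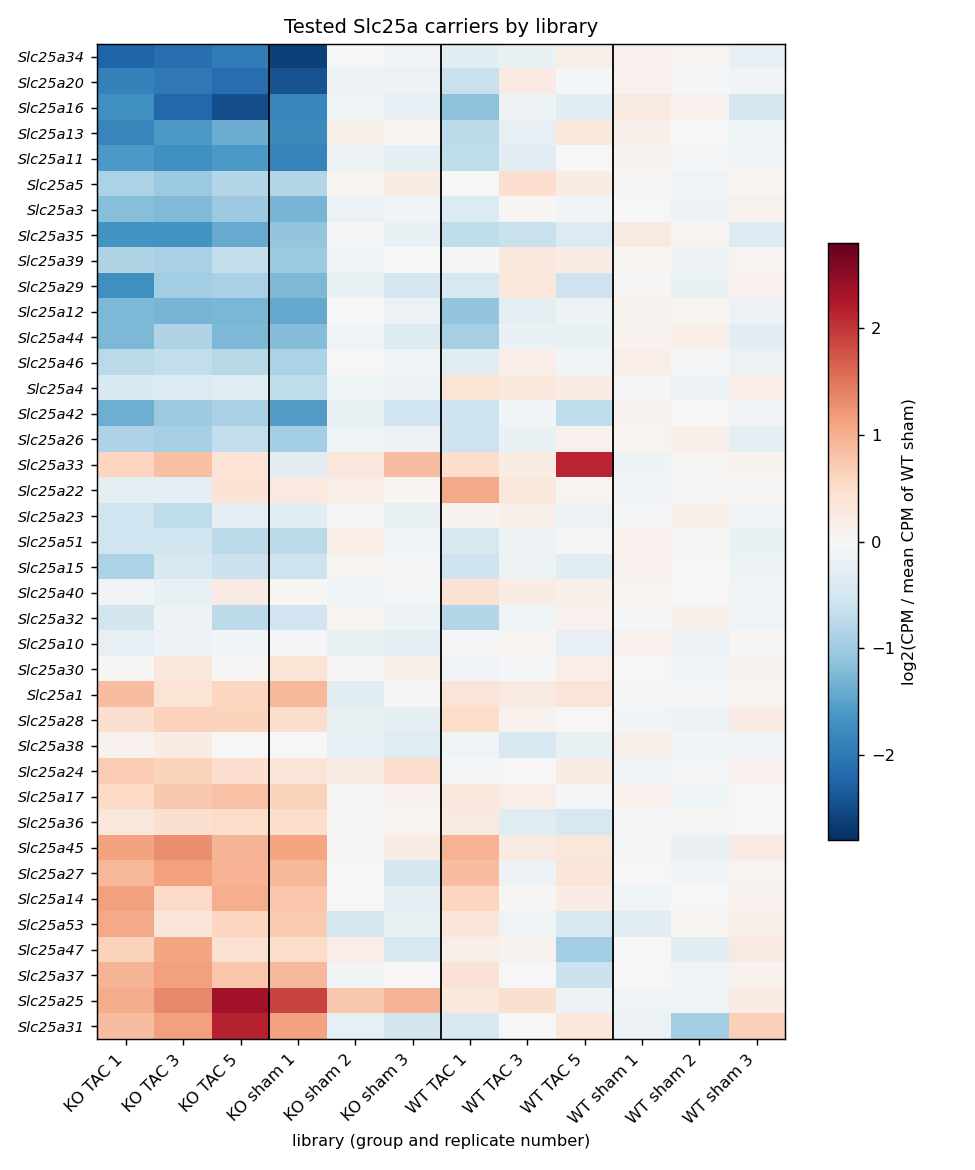
Log2 ratio of each library's CPM to the mean of the 3 WT sham libraries (colour, blue lower and red higher) for all but 1 of the 40 tested carriers, ordered by log2 fold change of KO TAC over WT TAC. The column of KO sham replicate 1 resembles the 3 KO TAC columns, and Slc25a33 stands out in WT TAC replicate 5 alone.

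Within KO hearts, the effect of TAC on the carriers could not be separated from the position of KO sham replicate 1, which lay with the KO TAC libraries, and none of the 40 carriers was called with it. edgeR called 0 carriers (0% of all genes tested), with 19 at an unadjusted p under 0.05, while DESeq2 called 7 and limma-voom 32. The 3 smallest p-values were those of Slc25a35, Slc25a16 and Slc25a34, with log2 fold changes of −1.20 ± 0.29, −1.56 ± 0.42 and −1.58 ± 0.47 (adjusted p = 0.103 for each). Slc25a34 had 22.7, 25.1 and 27.9 CPM in KO TAC hearts, against 17.6, 108 and 101 CPM in KO sham hearts. Slc25a20 had 35.9, 33.5 and 30.6 CPM in KO TAC hearts, against 24.6, 122 and 120.1 CPM in KO sham hearts. In both, the lowest of all 6 values was that of KO sham replicate 1. Over the 40 carriers, that library lay nearer to the KO TAC mean than to the mean of the other 2 KO sham libraries for 35, and between the lowest and highest of the other 2 for 1.

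Without KO sham replicate 1, 28 of 41 tested carriers were called between KO TAC and the remaining KO sham libraries. Of these, 17 were lower (41.5%, against 25.2% of all genes tested) and 11 higher (26.8%, against 22.4%). That library was left out because it lay with the KO TAC libraries, so leaving it out favours such calls and small p-values. These values are no independent test of the effect of TAC. Slc25a34 fell by 2.06 ± 0.17 on the log2 scale (adjusted p = 3.12e-05), Slc25a16 by 1.93 ± 0.30 (0.000508), Slc25a20 by 1.87 ± 0.20 (9.0e-05) and Slc25a13 by 1.72 ± 0.24 (0.000267). The largest rises were those of the low Slc25a31, by 1.84 ± 0.53 (adjusted p = 0.0123), and Slc25a27, by 1.22 ± 0.25 (0.00207). Of the carriers that rose in KO TAC against WT TAC, Slc25a37 rose by 1.0 ± 0.23 (adjusted p = 0.00396), Slc25a25 by 0.82 ± 0.32 (0.0469) and Slc25a17 by 0.63 ± 0.15 (0.00432). Slc25a24 was not called (adjusted p = 0.181). Slc25a4 was not called in this comparison with or without that library. This comparison and KO TAC against WT TAC use the same KO TAC libraries.

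In WT hearts, TAC moved none of the 40 carriers past the threshold, and the median log2 fold change was −0.05, or 0.11 with library totals in place of TMM, which moved the median of all genes tested by 0.15. edgeR, DESeq2 and limma-voom each called 0 carriers (edgeR called 0.0316% of all genes tested), with 2 at an unadjusted p under 0.05 in edgeR. The 3 smallest p-values were those of Slc25a33, Slc25a22 and Slc25a35. Slc25a33, a pyrimidine nucleotide carrier, had 10.3, 8.49 and 32.6 CPM in WT TAC hearts, against 6.72, 7.53 and 7.86 CPM in WT sham hearts, with a log2 fold change of 1.21 ± 0.44 (adjusted p = 0.229). WT TAC replicate 5 alone gave the high value. Slc25a22 had 66.0, 38.8 and 33.3 CPM in WT TAC hearts, against 29.8, 32.4 and 32.3 CPM in WT sham hearts (log2 fold change 0.55 ± 0.25, adjusted p = 0.303), and Slc25a35 had a log2 fold change of −0.57 ± 0.27 (adjusted p = 0.317). The ADP/ATP carrier Slc25a4 had 5197, 4901 and 4589.6 CPM in WT TAC hearts, against 3888, 3587 and 4521 CPM in WT sham hearts, with no overlap and a log2 fold change of 0.29 ± 0.21 (adjusted p = 0.481). Without both libraries that stood apart, 1 carrier was called, the pyrimidine nucleotide carrier Slc25a36, which was lower in WT TAC. Without KO sham replicate 1 alone the edgeR count was 0 of 41 (6.53% of all genes tested), with 6 at an unadjusted p under 0.05.

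Between genotypes after sham surgery, none of the 40 carriers was called by edgeR (0.00633% of all genes tested) or DESeq2, with 3 at an unadjusted p under 0.05 in edgeR, while limma-voom called 4. Slc25a25 had the smallest p, with 25.9, 11.7 and 13.4 CPM in KO sham hearts against 6.35, 6.35 and 8.05 CPM in WT sham hearts. All KO sham values lay above all WT sham values, and the log2 fold change was 1.29 ± 0.36 (adjusted p = 0.260). Slc25a24 and the coenzyme A carrier Slc25a42 followed, with log2 fold changes of 0.33 ± 0.14 (adjusted p = 0.346) and −0.66 ± 0.28 (adjusted p = 0.349). Without KO sham replicate 1 the edgeR count was 0 of 41 (0.241% of all genes tested), with 2 at an unadjusted p under 0.05.

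Whether TAC acted differently in KO and WT hearts was tested as an interaction, the log2 fold change of TAC over sham in KO minus that in WT. With all libraries, edgeR and DESeq2 called 0 carriers (0% of all genes tested by edgeR), with 3 at an unadjusted p under 0.05 in edgeR, and limma-voom called 19. Slc25a5 gave the smallest p, with an interaction of −1.02 ± 0.34 (adjusted p = 0.463), followed by the glycine carrier Slc25a38 at 0.54 ± 0.20 (0.503) and Slc25a34 at −1.49 ± 0.66 (0.537). Without KO sham replicate 1, 8 carriers were called with a lower value (19.5% of those tested, against 7.45% of all genes tested) and 1 with a higher value (2.44%, against 4.66%). The 8 were Slc25a34 at −1.96 ± 0.22 (adjusted p = 0.00108), Slc25a20 at −1.76 ± 0.27 (0.00414), Slc25a5 at −1.28 ± 0.21 (0.00564), Slc25a39, Slc25a13, Slc25a11, Slc25a3 and Slc25a16, and the 1 was Slc25a37 at 1.01 ± 0.30 (0.0474). Without both libraries that stood apart the interaction count was 23. Leaving out KO sham replicate 1 favours interaction calls too, since that library was chosen for lying with the KO TAC libraries.

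**Figure D4:**
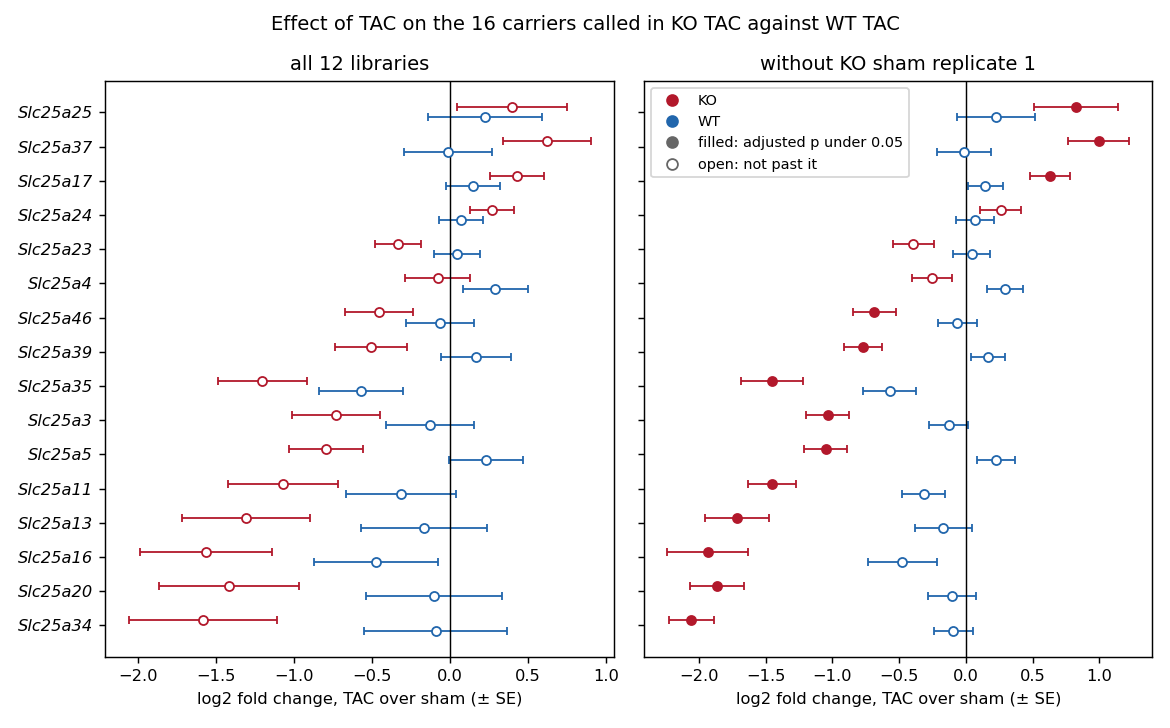
Log2 fold change of TAC over sham (horizontal axis, ± SE) in KO (red, upper of each pair) and WT (blue, lower) for the 16 carriers called in KO TAC against WT TAC, with all 12 libraries on the left and without KO sham replicate 1 on the right. Filled points have adjusted p under 0.05, which 13 red points and no blue point reach on the right, and none reaches on the left.

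The summed level of the 47 carriers was 4565, 4691 and 4899 CPM in KO TAC hearts, against 7660.3, 8024 and 7646 CPM in WT TAC hearts. KO sham hearts summed to 3983, 6643 and 6515 CPM, against 7093, 6566 and 7678 CPM in WT sham hearts. The 3 KO TAC libraries and KO sham replicate 1 held the lowest sums. Slc25a4 made up 64.2 to 65.6% of the sum in KO TAC hearts, 54.8 to 61.5% in KO sham hearts, 60.0 to 67.8% in WT TAC hearts and 54.6 to 58.9% in WT sham hearts.

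Other properties of the libraries moved with these sums. The share of counts from mitochondrial genome transcripts was 44.0 to 51.3% for KO TAC hearts and 50.95% for KO sham replicate 1, and for the other 8 libraries it was 24.8 to 36.9%. Without these transcripts in the scaling, edgeR still called the same 16 carriers in KO TAC against WT TAC. That setting moved the median of all genes tested by only −0.016 on the log2 scale, so it could hardly change the calls. The part of the differing share in the calls was not tested. Summed levels of 6 cardiomyocyte markers were 31061 to 34010.0 CPM in KO TAC hearts and 24441 CPM in KO sham replicate 1, while the other 8 libraries had 40856 to 50470.0 CPM. In KO TAC against WT TAC, Actc1 and Ryr2 of those 6 fell and 4 were not called. Of all genes tested, 11.7% fell and 8.63% rose there, and the counts of the marker lists stand against those shares. Without KO sham replicate 1 the number of the 6 that fell was 4, where 22.1% of all genes tested fell. Summed levels of 4 atrial markers (Myl7, Myl4, Sln and Bmp10) were 323 to 1514 CPM in KO TAC hearts against 2.67 to 9.51 CPM in WT TAC hearts, and all 4 rose. The atrial sum was 1832 CPM in KO sham replicate 1 and 217 and 154 CPM in the other KO sham libraries, against 21.1, 901 and 72.2 CPM in WT sham hearts. WT sham replicate 2, with 901 CPM of atrial markers, had the lowest carrier sum of the WT sham hearts. It was the lowest of the 3 WT sham values for 15 of the 40 tested carriers, the middle one for 19 and the highest for 6. Of the 8 most abundant carriers it was lowest for 4, Slc25a4, Slc25a3, Slc25a5 and Slc25a39, and in the middle for the other 4. These are ranks of 1 library, and the same ranks were not taken over all genes. They are therefore not read as a result about the carriers. Summed levels of 5 adipocyte markers were 18.3 to 23.9 CPM in KO TAC hearts and 23.1 CPM in KO sham replicate 1, against 0.147 to 1.08 CPM in WT TAC hearts. All 4 that could be tested rose. These markers were near the floor in WT TAC hearts, so they passed the low-count filter through libraries where they are higher. Their calls therefore add no support to the levels. The adipocyte sum was 4.36 and 3.84 CPM in the other KO sham libraries, against 1.38, 8.67 and 1.29 CPM in WT sham hearts. Of the brown adipocyte markers, Ucp1 had 6 counts and Elovl3 8 counts over all 12 libraries, too few for a test. The third, the lipid droplet protein Cidea, had 15.2, 14.6 and 15.5 CPM in KO TAC hearts, against 31.3, 32.1 and 28.9 CPM in WT TAC hearts. It fell by 1.02 ± 0.18 on the log2 scale (adjusted p = 0.0142), opposite in direction to the other adipocyte markers. Among 5 macrophage markers Cd68 fell and 4 were not called, and among 5 fibroblast markers Dcn rose and 4 were not called. Among 5 endothelial markers and 5 erythroid markers none was called, and of 5 skeletal muscle markers Myh4 was at 0 counts and the 1 that could be tested was not called. The part of these differences in the carrier results was not tested. In bulk RNA, fewer cells of a type and less RNA per cell cannot be told apart.

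**Figure D5:**
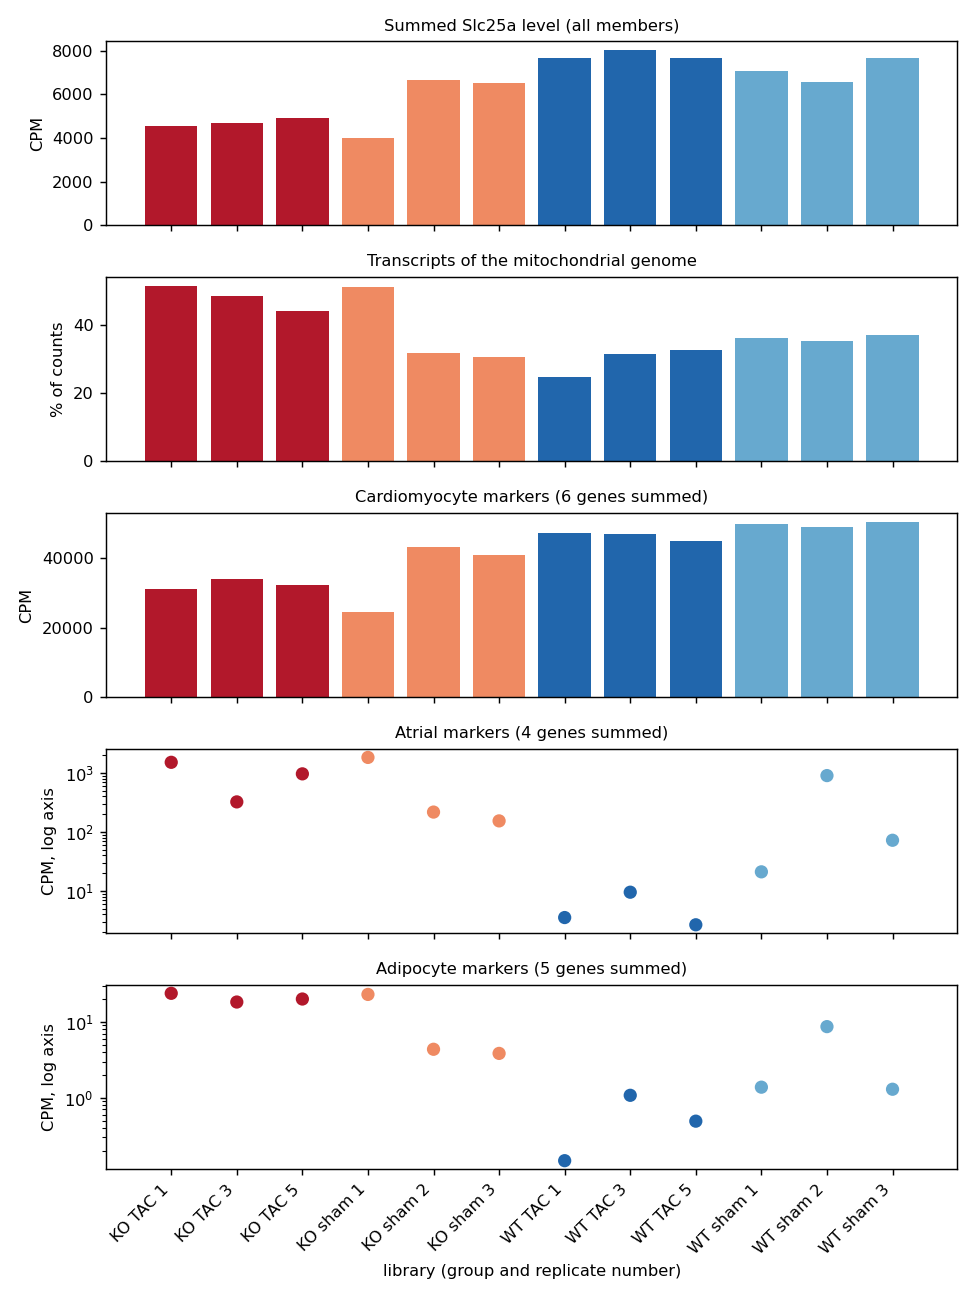
Per library, from top to bottom, the summed CPM of the 47 carriers, the percentage of counts from the mitochondrial genome, and the summed CPM of 6 cardiomyocyte, 4 atrial and 5 adipocyte markers, the last 2 on log axes. The 3 KO TAC libraries and KO sham replicate 1 have the lowest carrier and cardiomyocyte sums and the highest mitochondrial genome percentages and adipocyte sums.

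Proteins that work beside the carriers were examined in KO TAC against WT TAC, since none of them was called by edgeR in any other comparison with all 12 libraries. Of all genes tested, 11.7% fell and 8.63% rose in KO TAC against WT TAC. Each count of a list stands against those shares, and no test of a list was run. All 4 soluble enzymes of the malate-aspartate shuttle fell, the cytosolic and matrix malate dehydrogenases Mdh1 and Mdh2 by 1.84 ± 0.45 (adjusted p = 0.0243) and 1.07 ± 0.28 (0.0286) on the log2 scale, and the transaminases Got2 and Got1 by 1.35 ± 0.39 (0.0362) and 1.32 ± 0.36 (0.0313). Mdh1 had 379, 304 and 378 CPM in KO TAC hearts, against 886, 1464 and 1444 CPM in WT TAC hearts. Of the 4 carnitine enzymes, Cpt2, which reforms acyl-CoA in the matrix behind Slc25a20, fell by 1.13 ± 0.32 (adjusted p = 0.0351), and Cpt1a, Cpt1b and Crat were not called. Of the outer membrane channels through which the same metabolites pass, Vdac1 and Vdac2 fell, by 1.91 ± 0.48 (adjusted p = 0.0258) and 0.94 ± 0.24 (0.0266), and Vdac3 was not called. The pyruvate carrier subunit Mpc2 fell by 1.10 ± 0.25 (adjusted p = 0.0210), while its partner Mpc1 had a log2 fold change of −0.98 ± 0.37 (0.0716).

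Among carrier-fold proteins with other symbols, the muscle uncoupling protein Ucp3 had 21.1, 15.3 and 26.7 CPM in KO TAC hearts, against 55.3, 29.5 and 62.7 CPM in WT TAC hearts, a log2 fold change of −1.22 ± 0.26 (adjusted p = 0.0197). Ucp2, the form found in many tissues and immune cells, overlapped between the groups (log2 fold change 0.27 ± 0.30, adjusted p = 0.501), and Mtch1 and Mtch2 were not called. Newly made carriers reach the inner membrane through the receptor Tomm70 and the TIM22 complex, and of 7 genes of that route 3 fell and none rose, where 11.7% of all genes tested fell. Without KO sham replicate 1, 5 of the 7 fell, where 22.1% of all genes tested fell. The 3 that fell with all libraries were Tomm70a by 1.30 ± 0.34 (adjusted p = 0.0280), the small intermembrane chaperone Timm10 by 1.21 ± 0.17 (0.0102) and the TIM22 subunit Timm29 by 0.97 ± 0.30 (0.0441). Of 8 genes of mitochondrial calcium transport, 2 fell, where 11.7% of all genes tested fell. They were the uniporter regulator Micu2 and the inner membrane ion exchanger Letm1, by 0.71 ± 0.22 (adjusted p = 0.0427) and 0.73 ± 0.20 (0.0314). None of the 5 sideroflexins, a separate family that includes serine carriers, was called.

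Of 8 regulators of mitochondrial gene expression, 2 fell and 1 rose, where 11.7% of all genes tested fell and 8.63% rose. Without KO sham replicate 1, 5 fell and 1 rose, where 22.1% of all genes tested fell and 18.5% rose. The oestrogen-related receptor Esrrb fell by 1.39 ± 0.30 on the log2 scale (adjusted p = 0.0202) and the mitochondrial DNA packaging factor Tfam by 1.29 ± 0.30 (0.0221), while Nrf1 rose by 0.51 ± 0.14 (0.0314). Esrra and Esrrg had log2 fold changes of −0.60 ± 0.21 (adjusted p = 0.0616) and −1.09 ± 0.41 (0.0700), and the coactivator Ppargc1a had −0.77 ± 0.52 (0.276). The counts of other lists in KO TAC against WT TAC also moved without KO sham replicate 1. The number that fell was then 3 of 4 carnitine enzymes, 2 of 2 pyruvate carrier subunits, 3 of 3 outer membrane channels and 2 of 4 tested carrier-fold proteins. It was 4 of 4 for the malate-aspartate shuttle enzymes and 2 of 8 for calcium transport, as with all libraries, while 1 calcium transport gene and 2 of 5 sideroflexins rose. Those counts stand against 22.1% of all genes tested that fell and 18.5% that rose.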

How the data were processed

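Per the labels' protocols, heart RNA was extracted with TRIzol and poly(A) RNA was read in 150 bp pairs on an MGISEQ-T7. The submitters' processing notes name HISAT2. Not given in the sources used here are its version, the counting tool, the strand setting, the build and the annotation. The authors deposited whole-number read counts per gene, not normalized, for 55357 Ensembl identifiers, of which 52081 matched a symbol in GENCODE M21. The unmatched identifiers stayed in the tests. Total counts were 14150109 to 22602225 per library.

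The test was edgeR's robust quasi-likelihood test (edgeR 4.0.16, R 4.3.3) after filterByExpr and TMM, fitted to all 12 libraries with 1 coefficient for each group, which leaves 8 residual degrees of freedom. Benjamini-Hochberg adjustment ran over all 15804 genes tested in each of 5 comparisons, with a threshold of 0.05. Levels are CPM of the TMM-scaled library, with SD over n = 3 libraries. Levels per kilobase divide by the merged exon length in GENCODE M21. The alternatives were other scalings and filters, DESeq2 1.42.0, limma-voom with sample weights (limma 3.58.1), a replicate block, a fit of the compared groups alone, and leaving out each library. The most alike replicates differed by 10.28 times the Poisson variance, so none was taken as a repeat.

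Members, gene lists and markers were chosen with earlier results of these data known. Carriers were named with values if among the 8 with the highest level per kilobase, if called, or if among the 3 smallest p-values of a comparison without calls. Other carriers given as not called were added after their values were seen. Leaving out both libraries that stood apart was also chosen after seeing the data. Promoter windows are those of RefSeq. The values of 1 tested carrier are not reported here, though it is in the counts.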

Additional observations from a re-analysis of the deposited data

How the results depend on the processing

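The 16 carriers called in KO TAC against WT TAC and the 3 smallest p-values of each other comparison, 28 values in all, were followed under the alternatives, and none changed direction. The other carriers given with values were not followed. For KO TAC against WT TAC, where 16 carriers were called, limma-voom called 30 and the fit without both libraries that stood apart (KO sham 1, WT TAC 1) called 34. Leaving out 1 library at a time gave 0 to 29. DESeq2 size factors in edgeR called 15, library totals 17, DESeq2 21, no low-count filter 11, a minimum mean of 1 CPM 17, and the compared groups alone 20. For TAC in KO (0 called), DESeq2 called 7, limma-voom 32, no low-count filter 2 (Slc25a35 and Slc25a5) and the fit without both libraries 32, with 0 to 28 when 1 library was left out. For the interaction (0 called), limma-voom called 19 and the fit without both libraries 23, with 0 to 9 when 1 library was left out. For KO sham against WT sham (0 called), limma-voom called 4, and for TAC in WT (0 called) the fit without both libraries called 1. Both of these stayed at 0 whichever library was left out. The causes of these changes were not tested. The shares of all genes called are not given beside these counts, so no change is read as particular to the carriers.

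The replicate block called 11 carriers in KO TAC against WT TAC and 0 in each other comparison. The replicate numbers were not taken to pair the libraries, since not every same-numbered pair correlated above 0.1 in its deviations from the group means. Same-numbered KO TAC and WT TAC libraries correlated at −0.136 to −0.049, and 0 of those 6 libraries correlated best with its own number. For KO sham and WT sham the correlations were −0.194 to 0.060, and 1 of 6 libraries correlated best with its own number. Across the other groups they were −0.175 to 0.061, except 0.618 between KO sham replicate 1 and WT TAC replicate 1, the libraries that stood apart, and 0.328 between KO sham replicate 3 and WT TAC replicate 3.

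Scaling by library totals moved the median of all genes tested by −0.22 in KO TAC against WT TAC, −0.18 for TAC in KO, 0.15 for TAC in WT, 0.11 in KO sham against WT sham and −0.33 in the interaction, on the log2 scale. At 0 to 82 counts over 12 libraries, the 7 untested carriers were too low for a test.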

Other observations

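The balance of the calcium-gated aspartate/glutamate carriers also varied. The ratio of Slc25a12 to Slc25a13, both per kilobase, was 1.28, 1.05 and 0.904 in KO TAC hearts, against 0.655, 0.840 and 0.628 in WT TAC hearts, without overlap. In sham hearts it was 1.09, 0.752 and 0.737 in KO, against 0.832, 0.894 and 0.824 in WT, and KO sham replicate 1 gave the 1 high value. These ratios were compared after both genes had been seen, and no test was run on them.

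Slc25a18, the second glutamate carrier and best known from astrocytes, was too low for the test with all libraries, at 0.459 to 1.10 CPM in KO TAC hearts and 0.147 to 0.430 CPM in WT TAC hearts. Without KO sham replicate 1 it passed the low-count filter, through KO TAC libraries, where its level is highest. Its log2 fold change was then 1.55 ± 0.53 (edgeR adjusted p = 0.0346), and it is among the 11 carriers counted as higher in that fit. Since it passed the filter through the group where it is high, this call gives no support for a rise.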
